A study of Rattus norvegicus with 7 samples.

Results

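*Slc9a3* (ENSRNOG00000015159) encodes the sodium/proton exchanger NHE3, and it is 1 of the 32754 genes in a table of read counts from rat adrenal gland. The gene was chosen by its measured fall: of the genes tested, it had the largest decrease shared by 2 stress protocols, chronic variable stress (hereafter CVS) and repeated foot shock (named CS, for chronic shock). Its levels against control are therefore given as a description, with no test. There were 3 control, 2 CVS and 2 CS libraries, all from male Sprague-Dawley rats, and each was made from the pooled RNA of 8 to 9 animals. Control rats were housed socially. CVS rats, whose cage mates were changed, received a varied series of physical, psychological and social stressors for 3 weeks, beginning about 1 week after weaning. CS rats lived alone in shuttle boxes over the same period and received foot shocks at random times. The 2 protocols thus differed in housing as well as in the stressor. The study's methods call the replicates independent groups of animals, so the errors and p-values here measure the spread between pools and not between single rats. Glands were taken about a day after the last stressor, in the middle of the light phase.

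NHE3 sits in the plasma membrane, where it carries sodium ions into the cell in exchange for protons. It is best known from the apical membrane of the kidney proximal tubule and of the intestine, where it takes up sodium and helps to reclaim bicarbonate. Its activity there is set by scaffold proteins that link it to the cytoskeleton, by kinases and by hormones, glucocorticoids and angiotensin II among them. In kidney its gene is also known as a target of the circadian clock.

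The sequence before the transcription start of *Slc9a3* is shown here because clock genes, described further on, were among the few related genes that could be followed in these libraries. It is taken from RefSeq (assembly GRCr8, chr1:30996003-30996252, minus strand), printed 5′ to 3′, with the E-box in capitals. The E-box is the sequence that clock proteins such as CLOCK and NPAS2 are known to bind.

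Slc9a3 promoter: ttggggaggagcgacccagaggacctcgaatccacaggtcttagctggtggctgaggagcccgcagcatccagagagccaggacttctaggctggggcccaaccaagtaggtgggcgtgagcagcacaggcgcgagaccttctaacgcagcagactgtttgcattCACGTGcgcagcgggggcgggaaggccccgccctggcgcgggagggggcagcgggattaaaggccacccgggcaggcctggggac

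These are the 250 bases before the start site of the RefSeq table, which lies 207 bases inside the outermost end of the gene in that assembly. The single E-box (CACGTG, the same on both strands) began 85 bases before the start, and 5.59% of the 33469 promoters of this length held one. GC boxes (GGGCGG or its complement, the kind of sequence bound by Sp1) began 71 and 58 bases before the start, and 30.5% of promoters held at least 1. AGAACA, the core of a glucocorticoid receptor site, was not in this window on either strand and was in 17.5% of promoters. Nor were TATAAA, the TATA box, in 12.9% of promoters, and TGACG, the core of a cyclic AMP response element, in 18.2%. The GC content was 66.8%, against a median of 51.2% over all promoters. In the same assembly the gene stands between *Exoc3* and *Cep72*, and 0 other listed genes overlap it. The counts were made on another build, Rnor_6.0, and none of their coordinates were used.

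Total counts were between 20095746 and 32242123 per library. A gene was tested if each of the 7 libraries held 10 or more of its reads, and 13892 genes were. The 2 defining genes of adrenal cell layers whose identifiers were known were read deeply in all 7 libraries. *Cyp11b2*, the aldosterone synthase of the zona glomerulosa, had 1679, 1925 and 2096 CPM (reads scaled to a common library total) in control, 2594 and 2459 in CVS and 2401 and 2519 in CS. All 4 stressed libraries were above all 3 control libraries, as they were for 3.75% of the genes tested. Its log2 change was 0.41 in CVS and 0.37 in CS, with adjusted p of 0.371 and 0.358 from edgeR (0.00549 and 0.00957 unadjusted). *Chgb*, a granule protein of the medulla, had 1093, 1164 and 1233 CPM in control, 1194 and 1049 in CVS and 1566 and 1500 in CS. Its log2 change in CS was 0.40, with an adjusted p of 0.214 from edgeR (0.00212 unadjusted). Both genes come from the study's own lists, and the other markers of these layers had no names. The part of the makeup of the gland in the level of *Slc9a3* was not tested.

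*Slc9a3* was read at least 464 times in every control library and at most 171 times in every stressed library. The raw counts were 742, 608 and 464 in control libraries 1, 2 and 3. They were 61 and 60 in the CVS libraries, and 171 and 88 in the CS libraries. As CPM scaled by the TMM method (normalized CPM), the control libraries had 22.0, 25.0 and 19.9. The CVS libraries had 1.92 and 3.03, and the CS libraries had 5.48 and 3.45. All 4 stressed libraries thus lay below all 3 control libraries, as they did for 3.62% of the genes tested in this direction. For CVS alone this held for 10.9% of genes and for CS alone for 11.9%. Since the gene was chosen on these values, nothing further was read from these shares. In pools of a whole gland, fewer cells that express the gene and less of its RNA per cell cannot be told apart.

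**Figure D1:**
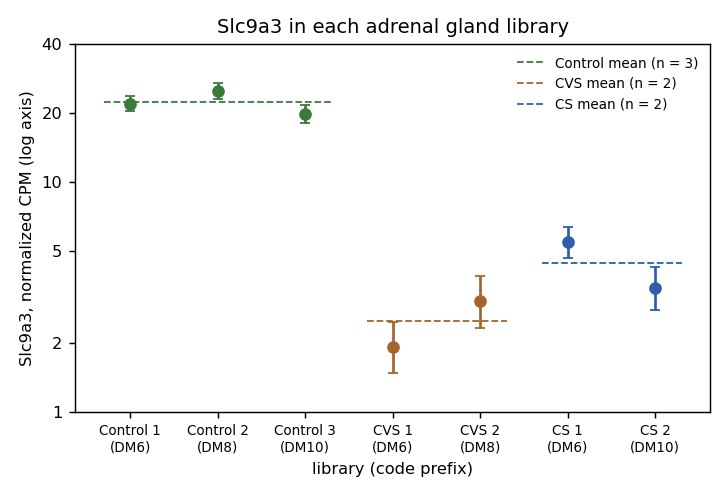
Normalized CPM of *Slc9a3* (log axis) in each library, with the code prefix of the labels in brackets. Points are libraries, bars are 95% counting intervals and dashed lines are group means. The control libraries sit between 19.9 and 25.0 and the stressed libraries between 1.92 and 5.48.

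The counting intervals of the control libraries were far from those of the stressed ones. The lowest control library (control 3) had an exact 95% Poisson interval of 18.1 to 21.8 normalized CPM, and the highest stressed library (CS 1) one of 4.69 to 6.36. Among the stressed libraries only some intervals were apart. That of CVS 2 (2.31 to 3.89) overlapped those of CVS 1 and of CS 2 (2.77 to 4.25). Overlap alone does not show that such levels agree within counting error. CVS 1 (1.47 to 2.46) lay below CS 2 and CS 1, and CS 1 lay above the other stressed libraries. These intervals cover counting error only.

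In control the mean level was 22.3 ± 2.56 normalized CPM (SD, n = 3). It was 2.47 ± 0.783 in the CVS libraries and 4.46 ± 1.43 in the CS libraries (SD, n = 2 each). The control mean was 9.01 times the CVS mean and 4.99 times the CS mean. The fits over all genes gave a log2 fold change of -3.21 for CVS and -2.31 for CS (standard error 0.21 in each), or 9.25-fold and 4.95-fold lower. Over every pairing of a stressed with a control library, the control level was 6.57 to 13.0 times the CVS level and 3.63 to 7.23 times the CS level.

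The spread between libraries of pooled RNA was larger than counting alone gives. The coefficient of variation of the normalized CPM was 11.5% in control and 31.7% in CVS, where counting error gives 4.14% and 12.9%, and the higher CS library had 1.59 times the level of the lower. In control, CVS and CS the variance between libraries was 7.06, 6.38 and 12.6 times the counting variance. The control SD of *Slc9a3* on the log2 scale was 0.165, and 60.3% of the genes tested had a smaller one (median 0.136). *Slc9a3* was thus neither among the steadiest nor among the most variable genes in the control libraries.

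The labels give each library a code whose prefix (DM6, DM8 or DM10) is shared across groups, without saying what it marks. Among the libraries with prefix DM6, *Slc9a3* had 22.0 normalized CPM in control 1, 1.92 in CVS 1 and 5.48 in CS 1. With DM8 it was 25.0 in control 2 and 3.03 in CVS 2, and with DM10 it was 19.9 in control 3 and 3.45 in CS 2. The decrease within a prefix was 11.5-fold and 8.25-fold for CVS and 4.02-fold and 5.75-fold for CS. The level was lower in the stressed library within each prefix, and both CVS decreases were larger than both CS decreases.

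Against the other genes tested in its own library, *Slc9a3* moved from the middle of the order of read counts to its lower part. In control libraries 1, 2 and 3, 51.3%, 54.1% and 49.0% of the genes tested had fewer counts. The share was 11.7% and 17.5% in the CVS libraries, and 25.6% and 19.1% in the CS libraries. In rank from the highest count, the gene stood between 6375 and 7073 in control, at 12240 and 11435 in CVS and at 10323 and 11211 in CS. The filter on low counts removed many low genes from this order. Among all genes with any count in a library, 66.2%, 66.8% and 62.0% had fewer counts than *Slc9a3* in control libraries 1, 2 and 3. That share was 38.6% and 39.55% in the CVS libraries, and 48.5% and 40.1% in the CS libraries. These are orders of read counts that were not divided by transcript length. They place the gene against itself in other libraries and do not compare its abundance with that of other transcripts.

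Few genes fell as far. *Slc9a3* had the lowest log2 fold change of all 13892 genes in CVS and also in CS. In CVS 5 genes were below -2, and in CS *Slc9a3* alone was. Ordered by the smaller of the 2 decreases, the nearest gene with a value given here was *Fetub*, which encodes the plasma protein fetuin-B, at -2.24 in CVS and -1.96 in CS. It was followed by AABR07063425.1, a gene listed as a miRNA, at -2.24 and -1.59. *Cdh8*, a cadherin of neurons, was at -1.55 and -1.11, *Rprm*, an inducer of cell cycle arrest, at -1.19 and -1.10, and *Cd36*, a scavenger receptor that takes up fatty acids, at -1.44 and -1.04. In all, 10 genes were below -1 under both protocols. Both comparisons used the same 3 control libraries. The median log2 fold change of all genes was 0.002 in CVS and 0.005 in CS, and 98% of genes lay between -0.679 and 0.660 in CVS and between -0.661 and 0.802 in CS.

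**Figure D2:**
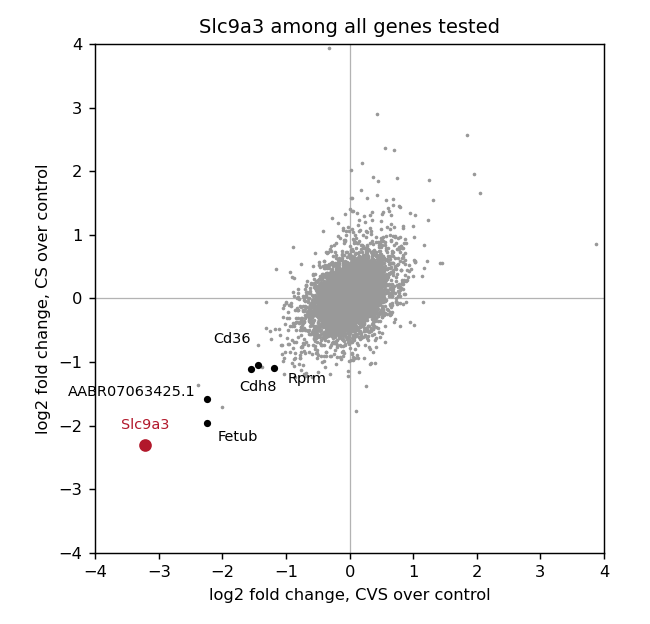
Log2 fold change of each of the 13892 genes tested in CVS (horizontal axis) and CS (vertical axis), each over the same 3 control libraries, 1 point per gene. *Slc9a3* (red) is at -3.21 and -2.31, and the named genes in black are the other large shared decreases whose names are given in the text.

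Among the genes left out of the tests for low counts, 1 of the 1102 with a mean of at least 10 counts in control had a larger decrease under both protocols. This gene (ENSRNOG00000056747, named after its values were seen) had 15, 45 and 72 counts in the control libraries, 2 and 1 in the CVS libraries and 10 and 5 in the CS libraries. Its control libraries differed among themselves far more than those of *Slc9a3*.

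CS and CVS were also compared directly, a contrast that was not used to choose the gene, though in libraries that were. *Slc9a3* was higher in both CS libraries than in both CVS libraries, an order that held for 20.5% of the genes tested. In the fit CS exceeded CVS by 0.88 on the log2 scale (standard error 0.33, 95% interval 0.079 to 1.68), or 1.84-fold with an interval of 1.06 to 3.21. By edgeR's quasi-likelihood test the p was 0.0358 unadjusted and 0.649 adjusted over all genes (Benjamini-Hochberg), so the difference did not pass the threshold of 0.1. At this threshold edgeR called 0 genes (0%) in the comparison and DESeq2's Wald test 45, with 1020 genes at an unadjusted p under 0.05 in edgeR. With the code prefix as a term in a fit of all 7 libraries, the *Slc9a3* difference was 1.15 and passed (adjusted p = 0.0411 from edgeR), and so it did without the filter on low counts (adjusted p = 0.0656 from edgeR). It was 0.50 without CS 1 and 0.57 without CVS 1, and 1.17 and 1.22 without CS 2 and CVS 2. The sign was the same without each of the 4 libraries, and the size depended on which was left out.

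**Figure D3:**
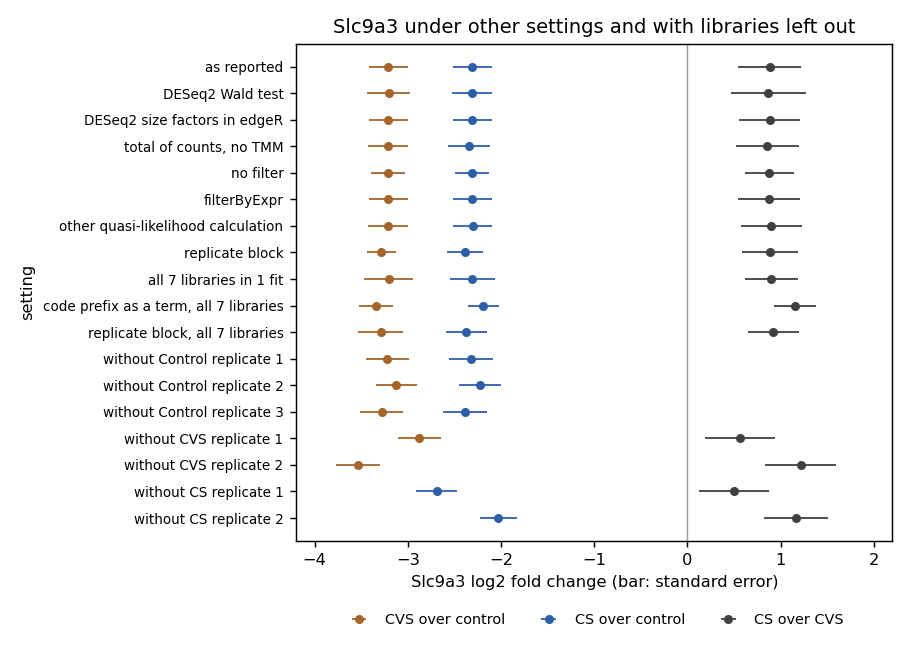
Log2 fold change of *Slc9a3* (horizontal axis) under each setting (vertical axis) for CVS over control, CS over control and CS over CVS. Points are estimates and bars standard errors. CVS over control stays between -3.54 and -2.88, CS over control between -2.69 and -2.03 and CS over CVS between 0.50 and 1.22.

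The genes whose levels were most like those of *Slc9a3* were found by Pearson's r of log2 normalized CPM over the 7 libraries. These libraries differ mainly in the contrast on which *Slc9a3* was chosen, so the values of r are descriptions. Of all other genes tested, 21 had an r over 0.95 and 13 an r under -0.95. The highest was that of AABR07063425.1 (r = 0.985), with 27.5, 33.8 and 25.1 normalized CPM in control, 5.06 and 7.26 in CVS and 9.13 and 10.1 in CS. As in *Slc9a3*, control 2 was the highest library and CVS 1 the lowest. Next came *Cdh8* (r = 0.982), which had 7.59, 8.62 and 8.01 in control, 2.61 and 2.92 in CVS and 3.59 and 3.89 in CS.

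Other genes followed the same order of groups over a much smaller range. *Cdh2*, which encodes N-cadherin (r = 0.982), had 62.2 ± 0.985 normalized CPM in control (SD, n = 3), 47.3 ± 1.08 in CVS and 52.8 ± 0.302 in CS (SD, n = 2 each). *Hoga1*, a mitochondrial enzyme of hydroxyproline breakdown (r = 0.980), had 65.3 ± 6.68 in control (SD, n = 3), 36.3 ± 1.77 in CVS and 40.6 ± 3.15 in CS (SD, n = 2 each). *Capn8*, a calpain protease (r = 0.969), and Gm14569 (r = 0.968) had means of 28.2 and 46.7 in control, 21.2 and 31.0 in CVS and 21.3 and 32.3 in CS. The 2 other genes among the 8 most alike had no name. The SD of the log2 level over the 7 libraries was 1.53 for *Slc9a3*, 1.07 for AABR07063425.1, 0.725 for *Cdh8* and at most 0.424 for the others.

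The most opposite pattern was that of *Jmjd1c*, a protein of the JmjC histone demethylase family (r = -0.991). It had 92.6 ± 3.09 normalized CPM in control (SD, n = 3), 121 ± 7.98 in CVS and 114 ± 5.51 in CS (SD, n = 2 each). *Vash2*, a vasohibin that promotes vessel growth (r = -0.972), had 64.9 ± 5.30, 97.7 ± 1.26 and 89.0 ± 4.61 in the same groups. Both genes were highest in CVS 1, where *Slc9a3* was lowest. The 2 other genes of this kind, ENSRNOG00000047307 (r = -0.980) and ENSRNOG00000010165 (r = -0.970), had no name.

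**Figure D4:**
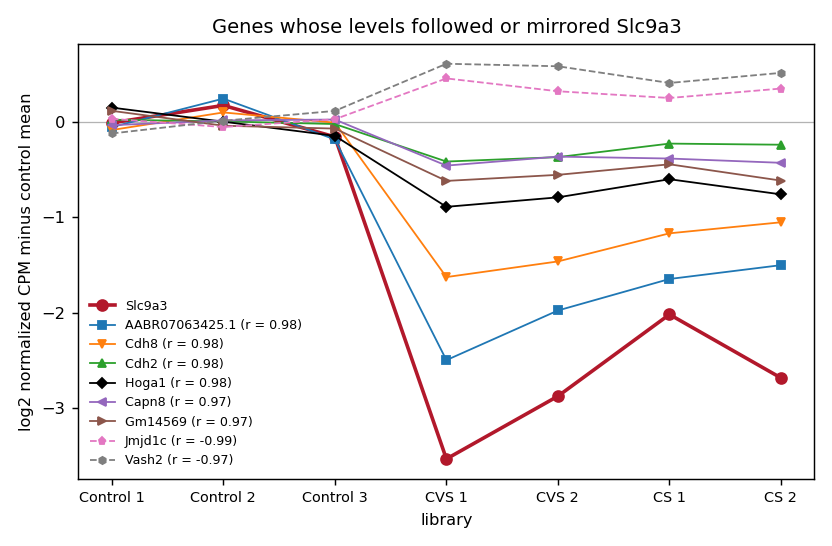
Log2 normalized CPM minus the control mean (vertical axis) in the 7 libraries for *Slc9a3*, the 6 named genes most like it (solid) and the 2 named genes most opposite to it (dashed), with Pearson's r. The order of libraries within a group carries no meaning. *Slc9a3* spans the widest range, and *Cdh2* and *Capn8* move little.

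The other exchangers of the family, the partners of NHE3 and the receptors that act on it could mostly not be followed, since the identifiers were paired with names only for genes that the study itself had listed as changed. Of the 12 exchanger genes *Slc9a3* alone had a name, and of 21 scaffolds, cofactors and kinases of NHE3 *Ezr* alone. *Ezr* encodes ezrin, which ties NHE3 to actin at the membrane. It had 42.5, 43.0 and 36.1 normalized CPM in control, 42.2 and 47.8 in CVS and 63.3 and 65.4 in CS. The CVS libraries overlapped the control range, and the CS libraries lay above it. In CVS the fitted log2 change was 0.15 with an adjusted p of 0.921 from edgeR (standard error 0.11). In CS it was 0.67 with an adjusted p of 0.0644 from edgeR (standard error 0.10), so neither passed 0.05. With the replicate number as a block the CS change of *Ezr* was 0.59 and passed (adjusted p = 0.00355 from edgeR). Kidney, liver and epithelial marker genes had no names here, and RNA of such cells was not analysed.

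Circadian clock genes were followed because the CVS series held shifts of the light cycle, though none in the last days before the glands were taken. Of 16 such genes 5 had a name. All 5 were listed by the study on these same libraries. Neither their directions nor the number called among them is therefore independent evidence. The shares of all genes beside these counts are no measure of enrichment. At an adjusted p under 0.05, 1 of the 5 was called in CVS and 0 in CS, where 0.0936% and 0.209% of all genes tested were called. At an unadjusted p under 0.05 there were 4 of the 5 in each protocol, against 6.45% of all genes in CVS and 8.44% in CS. The gene called was *Cry1*, a repressor of the clock, which rose from 16.2, 18.8 and 17.7 normalized CPM in control to 39.9 and 31.2 in CVS. Its fitted log2 change there was 1.02, with an adjusted p of 0.0488 from edgeR (standard error 0.13). In CS it had 22.4 and 29.7. The call was at the edge of the threshold and was lost without control 1, 2 or 3 or CVS 1 (adjusted p = 0.112, 0.0706, 0.306 and 0.215 from edgeR). With the replicate number as a block, edgeR called 5 of the 5 clock genes in CVS and 4 in CS, where it called 5.88% and 3.01% of all genes. Control 3 has no same-numbered stressed library and added nothing to those fits. With the same block over all 7 libraries it called 4 in CVS and 1 in CS, *Npas2*, against 0.878% and 2.6% of all genes. With the code prefix as a term it called 4 in CVS and 0 in CS, against 1.85% and 4.18%. Some fits with no block or prefix also called more. DESeq2's Wald test called 4 in CVS and 3 in CS, where it called 121 and 192 of all 13892 genes. Without a filter edgeR called 4 and 3, where it called 151 of 22425 and 232 of 22388 genes. The other fits with no block or prefix and no library left out called 0 or 1 in CVS and 0 in CS.

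*Npas2*, which forms the activating arm of the clock with BMAL1, had the highest r with *Slc9a3* of the named clock genes (r = 0.920). *Cry1* had the lowest (r = -0.957). The levels of *Npas2* were 14.0, 14.8 and 13.4 normalized CPM in control, 4.94 and 7.16 in CVS and 7.81 and 10.2 in CS. The fitted log2 change was -1.23 in CVS, with an adjusted p of 0.0736 from edgeR, and -0.64 in CS, with one of 0.238. Both passed with the replicate block (adjusted p = 5.58e-16 and 0.0362 from edgeR) and with that block over all 7 libraries (0.00587 and 0.0395). The CVS value with the block rests on few pools, as control 3 added nothing to that fit. Its size is no measure of the strength of the evidence. With the code prefix as a term CVS passed (adjusted p = 0.00135 from edgeR) and CS did not (0.0512). With no block or prefix, both passed in DESeq2's Wald test (adjusted p = 1.27e-06 and 0.0292). Both also passed in edgeR without a filter (adjusted p = 2.38e-06 and 0.0437). Neither passed in the other fits with no block or prefix and no library left out. In the main edgeR fit without control 1, 2 or 3, neither change of *Npas2* passed 0.05. *Nr1d1*, which represses *Npas2* and its partner, had 161, 167 and 169 in control, 67.6 and 117 in CVS and 129 and 127 in CS. The adjusted p of *Nr1d1* was 0.312 in CVS and 0.1745 in CS, from edgeR. For *Npas2*, *Nr1d1* and *Slc9a3* alike, CVS 1 was the lowest of all libraries. *Per2*, a repressor, had 135 and 121 in CVS, 74.2 to 84.8 in control and 81.9 and 82.1 in CS. The log2 change of *Per2* was 0.67 in CVS and 0.04 in CS. With adjusted p of 0.0645 and 0.96 from edgeR, neither passed 0.05. *Dbp*, an output gene of the clock, had 256 and 469 in the CVS libraries, which lie on either side of the lowest control library (426). In CS it had 343 and 332, both below every control library, with a log2 change of -0.47 and an adjusted p of 0.168 from edgeR (0.00131 unadjusted).

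Adipocyte genes were also followed, as the gland lies in fat. Of a list of 8, 6 had a name, again from the study's own lists of genes changed in these libraries. Neither their rise nor the number called among them is therefore independent evidence, also where the share of all genes is given. The summed level of the 6 was 32.6 to 50.1 normalized CPM in control, 58.1 to 61.4 in CVS and 88.9 to 103 in CS. It was above the control range under both protocols and highest in CS. Not every member was above control in CVS. *Cfd* had 6.67 and 8.82 normalized CPM there, against 8.15, 5.83 and 7.41 in control, with a log2 change of 0.11. At an adjusted p under 0.05, edgeR called 0 of the 6 in CVS and 2 in CS, *Adipoq* (adiponectin) and *Retn* (resistin), at log2 changes of 1.31 and 1.56. Of all genes tested, 0.0936% and 0.209% were called. At an unadjusted p under 0.05 from edgeR there were 5 of the 6 in CVS and 6 in CS, against 6.45% and 8.44% of all genes. The calls of *Adipoq* and *Retn* were both lost without control 1, 2 or 3, with 0 of the 6 called each time. In these fits edgeR called only 1, 4 and 1 of all 13892 genes, so the loss was not particular to adipocyte genes. Without CS 1 and CS 2 the log2 change was 1.32 and 1.28 for *Adipoq* and 1.739 and 1.365 for *Retn*. With the replicate block 4 of the 6 were called in CVS and 5 in CS, against 5.88% and 3.01% of all genes. With that block over all 7 libraries there were 3 and 5, against 0.878% and 2.6%. With the code prefix as a term there were 4 and 6, against 1.85% and 4.18%. DESeq2's Wald test called 0 and 6, where it called 121 and 192 of all 13892 genes. Without a filter edgeR called 2 and 6, where it called 151 of 22425 and 232 of 22388 genes. The other fits with no block or prefix and no library left out called 0 in CVS and 2 or 3 in CS. The part of adipocyte RNA in the level of *Slc9a3* was not tested.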

How the data were processed

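Total RNA of rat adrenal glands was pooled from 8 to 9 animals per library, enriched for poly(A) RNA and sequenced as single reads from directional libraries. Alignment to the rat build Rnor_6.0 used Rsubread, and featureCounts then gave 1 count for each Ensembl gene. The counts were deposited by the authors without normalization. The versions, the strand setting and the annotation release are not given in the sources used here. Total counts limited the precision of low genes, as the counting intervals show.

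Counts were scaled and tested with edgeR 4.0.16 in R 4.3.3 (limma 3.58.1; TMM, estimateDisp, glmQLFit and glmQLFTest at default settings), on the libraries compared only, with Benjamini-Hochberg adjustment over 13892 genes. The log2 levels had a prior of 2 counts. DESeq2 1.42.0 was an alternative, beside other scalings, filters, terms and libraries left out. Scripts were tested on simulated data. Descriptions and plots used numpy 2.4.6, pandas 2.3.3 and matplotlib 3.10.9 under Python 3.11.15.

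The gene, the lists and the tests were chosen with earlier results of these data known. The genes named were *Slc9a3*, list members with an unadjusted p under 0.05 or among the first 4 of their list, the neighbours of *Slc9a3* in the reference table (the nearest on each side is printed), and the 8 genes most like and 4 most opposite to *Slc9a3*. *Fetub*, *Rprm*, *Cd36* and ENSRNOG00000056747 were named after their values were seen. Names were available for 275 of 32754 identifiers, from the study's lists of changed genes. Of 16 gene lists, 0 had 80% of their genes named (the highest share was 75.0%), so no list was tested. This voids the lists of ion transporters, hormone receptors, glucocorticoid targets, cortex, stroma, endothelium and leukocytes, with 0 names each. For 1 gene no values are given.

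Whether the replicate numbers pair the libraries was checked from how far each library stood from its group mean, over the genes tested. In the 6 pairs with the same number these deviations had correlations of 0.219 to 0.471. The lowest was that of control 2 with CS 2. The code prefix joins CS 2 to control 3 instead, and that pair was not checked. Whether the numbers pair the libraries was thus not settled. The main fits held no pairing term, and the replicate block was run beside them. Groups of 2 have mirrored deviations, and the pairs are not independent.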

Additional observations from a re-analysis of the deposited data

How the results depend on the processing

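The log2 fold change of *Slc9a3* kept its sign in all 3 comparisons under every setting run. Libraries left out moved it between -3.54 and -2.88 in CVS, between -2.69 and -2.03 in CS and between 0.50 and 1.22 in CS over CVS. Where this left 1 library in a group, that library was assumed to vary like the others. With the replicate number as a block, the values were -3.29, -2.39 and 0.89, and the last did not pass 0.1 (adjusted p = 0.136 from edgeR). It passed without a filter (0.88) and with the code prefix as a term (1.15), and over all settings its adjusted p was 0.0411 to 0.996.

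The number of genes called depended on the model. In CVS (13 genes) it was 121 with DESeq2's Wald test, 7 with DESeq2's size factors, 151 without a filter, 8 with filterByExpr, 6 with the other quasi-likelihood calculation, 817 with the replicate block, 257 with the code prefix, 122 with the block over all 7 libraries, an alternative added once the data had been seen, and 0 to 16 with a library left out. In CS (29 genes) it was 192 with DESeq2, 232 without a filter, 418 with the block, 580 with the prefix, 361 with the block in all 7 libraries and 1 to 83 with a library left out. In CS over CVS (0 genes) it was 45, 391, 843, 287, 520 and 0 to 86 for the same settings. The cause was not tested.

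The log2 changes of *Ezr*, *Npas2*, *Cry1*, *Adipoq* and *Retn*, also run under these settings after the data had been seen, kept their signs in both protocols. Their calls depended on the setting. The smallest adjusted p of *Npas2* and of *Cry1* in CVS came from the replicate block, which rests on few pools. The adjusted p of *Ezr* in CS was 3.11e-05 to 0.283, that of *Npas2* 5.58e-16 to 0.382 in CVS and 0.0292 to 0.615 in CS, and that of *Cry1* in CVS 7.49e-21 to 0.306 (edgeR or DESeq2).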
